A study of Mus musculus with 24 samples.

Results

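This account concerns 10 target genes of the transcription factor p53 in mouse liver: Cdkn1a, Mdm2, Gadd45a, Bbc3, Bax, Ccng1, Gdf15, Trp53inp1, Sesn2 and Phlda3. They were found by their gene symbol in a table of 18314 genes, and all 10 were present and passed the filter on low counts. The livers came from male C57BL/6 mice of wild-type genotype, whose age is not given in the labels. Control mice ate a normal diet. HFD mice ate a high-fat diet, which brings about a fatty liver that models metabolic dysfunction-associated fatty liver disease. HFD plus HQHF mice (called HQHF mice here) ate the same diet and received the herbal Huatanqushihuoxue Formula by gavage after 12 weeks of it. The dose behind these libraries is not given in the labels. Each of 12 mice, 4 per group, gave 1 long RNA and 1 small RNA library from total liver RNA. The comparisons used 10 mice: control 1, 3 and 4, HFD 1 to 4, and HQHF 1, 2 and 4.

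p53 is kept low in unstressed cells because MDM2, the product of one of its own targets, marks it for destruction. DNA damage and other stresses release it, and it then switches on genes that halt the cell cycle, repair DNA, start apoptosis or adjust metabolism. The microRNA gene for miR-34a is also a direct p53 target, and miR-34a is known to be raised in fatty liver. In liver, CDKN1A (p21) is also controlled by many signals other than p53, among them fasting and the circadian clock.

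The 2 mice left out, control 2 and HQHF 3, stood apart from the rest. Alb, the albumin gene that marks hepatocytes, was at 46.4 and 0.743 CPM (a gene's count relative to the library's total count) in them, against 35100 to 92200 in the other 10. Adipoq, an adipocyte gene, was at 4540 and 1250 CPM, against at most 41.2. These 2 libraries thus go against the label of liver tissue. Several p53 targets were also far out of range there: Phlda3 was at 49 and 85.5 CPM, against 0.0726 to 6.01 in the other 10, and Ccng1 at 149 and 114, against 13.5 to 41.8. Control 2 lay above all 10 other libraries for 6 of the 10 targets, and HQHF 3 for 4 of 10. The share of all genes that did so was not counted, so these counts cannot show a trait of p53 targets. With all 12 mice in the fit, none of the 10 targets passed the test in any comparison, and of all genes 0.0503% passed in HFD against control, 0.00718% in HQHF against HFD and 0% in HQHF against control. Below, each call of these 10 targets or of the miR-34 family in the main fit of 10 mice is followed by its value with 12 mice. Calls made under other settings or for other genes are mostly not.

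**Figure D1:**
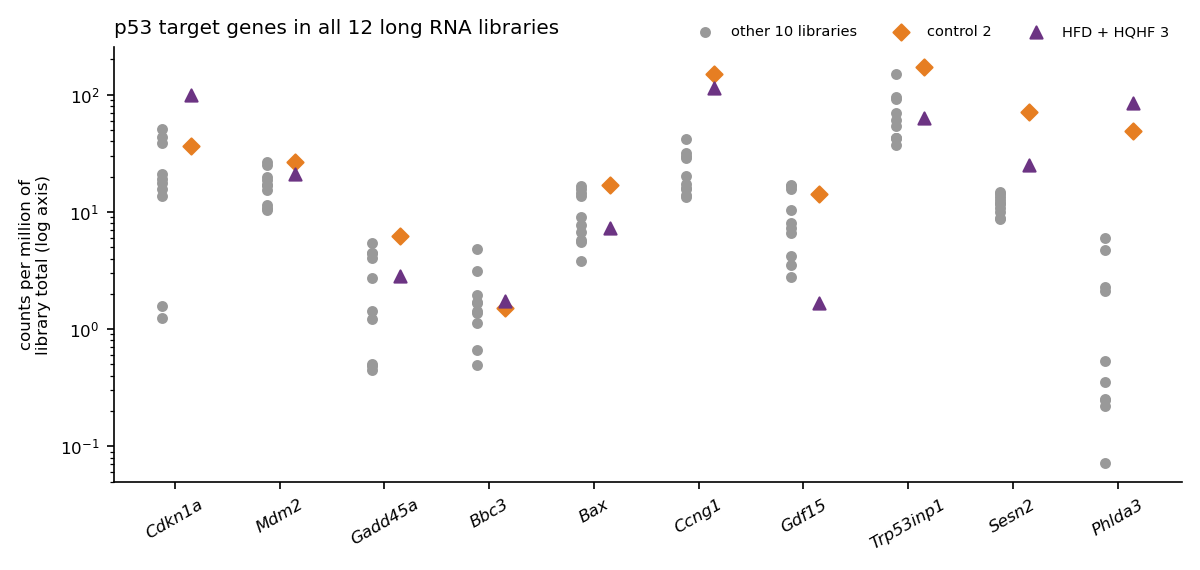
Level of the 10 target genes in all 12 long RNA libraries, in CPM of the library total on a log axis; grey points are the 10 libraries compared, the diamond is control 2 and the triangle HFD plus HQHF 3. For Ccng1, Sesn2 and Phlda3 both markers sit above every grey point.

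Among the 10 mice, the long RNA libraries held 36198931 to 46454404 counts and the small RNA libraries 8139111 to 12813806. From here on, CPM values are scaled by TMM, a correction for differences in RNA composition between libraries. The files give no transcript lengths, so levels are compared between mice and never between genes. In bulk tissue, a change in the number of cells of a type and a change in RNA per cell cannot be told apart. The labels do not say whether libraries of a group were prepared apart, although each mouse has its own batch code, so p-values measure the spread between these libraries.

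The microRNA set beside the target genes is miR-34a-5p. Its mature sequence is shown with those of its family, because a microRNA finds its targets mainly through its seed, bases 2 to 8, here in capitals.
miR-34a-5p: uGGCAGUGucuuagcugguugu
miR-34b-5p: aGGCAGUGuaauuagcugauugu
miR-449a-5p: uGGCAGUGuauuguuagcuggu
miR-449c-5p: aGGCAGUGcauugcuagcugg
All 4 share the seed GGCAGUG. The sequences are those of RefSeq on build GRCm38.p6, where miR-34a-5p lies at chr4:150068473-150068494 on the plus strand, miR-34b-5p at chr9:51103610-51103632 on the minus strand and miR-449a-5p at chr13:113037549-113037570 on the plus strand. miR-34c-5p belongs to the same family. Of the summed counts of these 4 microRNAs and miR-34c-5p, miR-34a-5p made up 96.97% to 99.66% in each of the 12 small RNA libraries.

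High-fat diet against control is the comparison of the fatty liver with the normal liver. Of the 10 target genes 5 rose (Gadd45a, Phlda3, Ccng1, Gdf15 and Bax) and none fell, at a Benjamini-Hochberg adjusted p under 0.05 in edgeR's quasi-likelihood test over 13832 genes. Over all genes tested, 16.3% rose and 9.89% fell. Gadd45a, Phlda3, Ccng1 and Bax were higher in every HFD mouse than in every control mouse, 4 of 10, against 20.8% of all genes. Fitted differences were above 0 for 9 of the 10 targets, with a median log2 fold change of 0.65 against 0.06 over all genes. The share of all genes above 0 was not counted. Of the 9, Trp53inp1 (0.02) and Mdm2 (0.06) lay near 0, and Cdkn1a (0.41) had an SE of 1.07. The targets that rose were a growth-arrest gene, a cyclin, a pro-apoptotic gene, a brake on AKT signalling and a secreted stress hormone. Cdkn1a and Mdm2, the best known targets, did not pass the test. With library totals in place of TMM 7 of the 10 passed, Mdm2 and Bbc3 in addition.

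**Figure D2:**
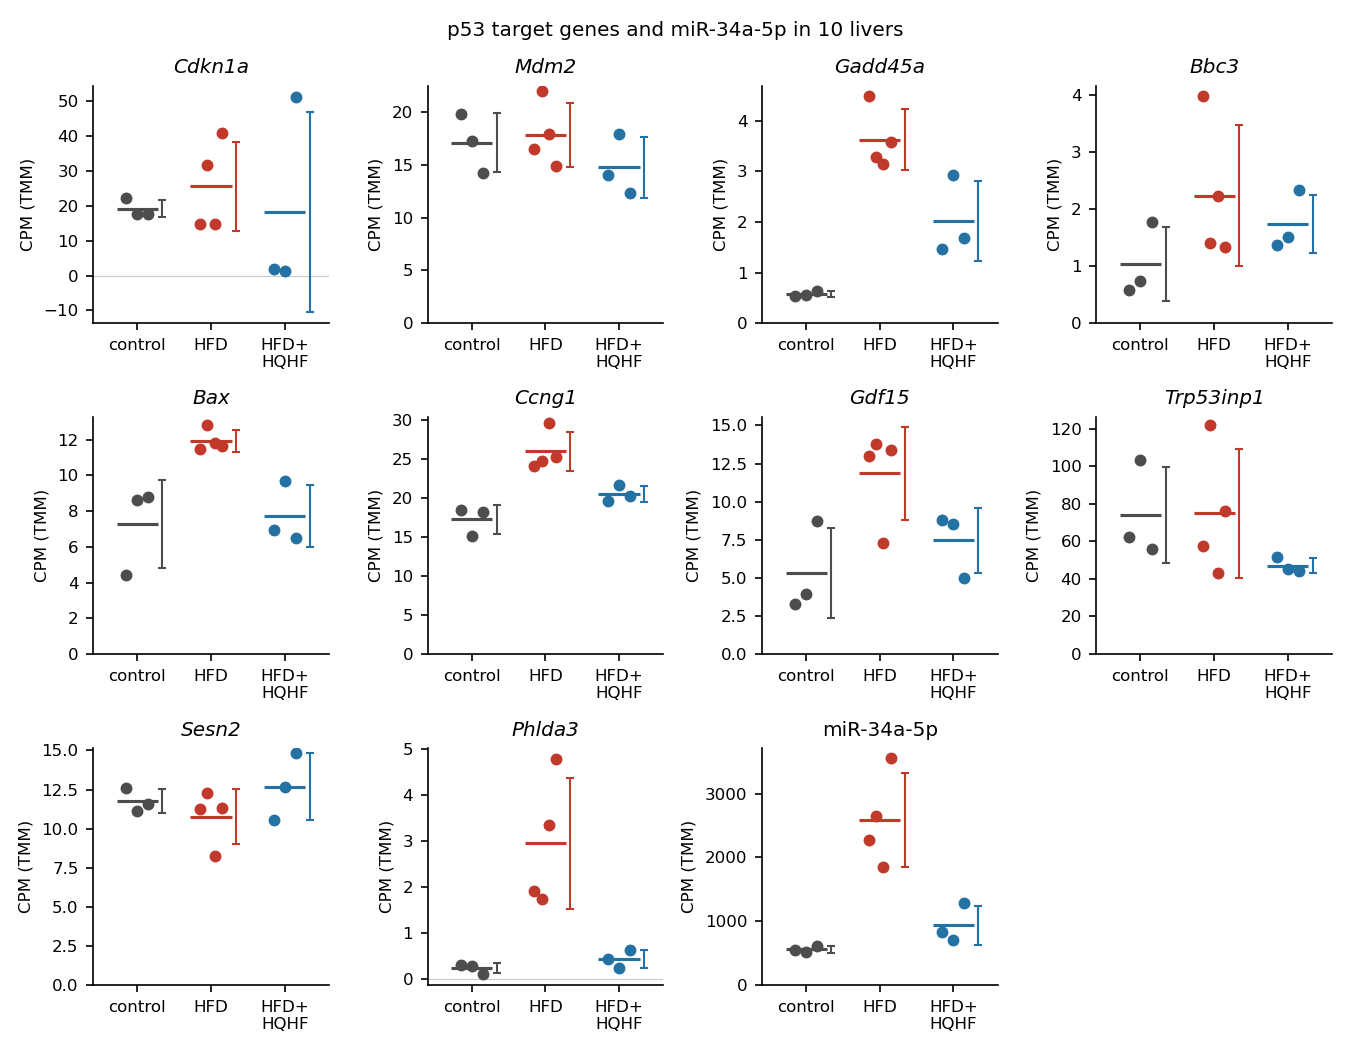
CPM of each target gene and of miR-34a-5p in 10 livers; points are mice, the horizontal line is the group mean and the bar beside it 1 SD (n = 3, 4 and 3). Gadd45a, Phlda3, Ccng1 and Bax are higher in every HFD mouse than in every control mouse, while Cdkn1a in HFD plus HQHF splits into 2 mice near 0 and 1 at 51.3 CPM.

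Gadd45a encodes a stress sensor that holds cells at the G2 checkpoint and takes part in DNA repair. Its level was 0.525, 0.564 and 0.635 CPM in control mice, 4.49, 3.29, 3.16 and 3.58 in HFD mice, and 1.46, 2.92 and 1.67 in HQHF mice. The 3 groups did not overlap, and HQHF mice lay between the other two. The diet raised it 6.3-fold, or by 2.66 ± 0.31 (SE) in log2 units (adjusted p = 0.00122). From HFD to HQHF the fitted log2 fold change was -0.84 ± 0.28 (SE), with an adjusted p of 0.0579. With 12 mice the diet's log2 fold change was 1.37 (adjusted p = 0.373).

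Phlda3 encodes a small lipid-binding protein that competes with AKT at the membrane and so dampens survival signalling. It was at 0.289, 0.282 and 0.0952 CPM in control mice, 1.92, 1.73, 3.35 and 4.80 in HFD mice and 0.431, 0.235 and 0.628 in HQHF mice. Every HFD mouse was above every other mouse, and HQHF mice overlapped with control mice. The diet's log2 fold change was 3.69 ± 0.56 (SE; adjusted p = 0.00329), a 12.9-fold rise resting on 3 to 11 counts per control library. In HQHF mice it fell by 2.77 ± 0.52 (SE) on the log2 scale from the HFD level (adjusted p = 0.00913). Both differences reversed with 12 mice, to -1.39 (adjusted p = 0.81) and 2.29 (adjusted p = 0.728), where the libraries left out held 1636 and 3221 counts of it.

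Cdkn1a encodes p21, the cyclin-dependent kinase inhibitor through which p53 stops the cell cycle. It was at 22.1, 17.7 and 17.8 CPM in control mice and at 14.8, 31.7, 14.9 and 40.8 in HFD mice. In HQHF mice it was at 1.90, 1.33 and 51.3, so the lowest and the highest values of all 10 mice fell in 1 group. The highest value there was 38.5 times the lowest, a ratio reached by 11 of the 7222 genes averaging 10 CPM or more (0.152%). In the control group that ratio was 1.25 and in HFD 2.76. The diet's log2 fold change was 0.41, with a 95% interval from -2.02 to 2.85 (adjusted p = 0.803), and that of HQHF against HFD was -0.49, with an interval from -2.93 to 1.95 (adjusted p = 0.774). The second rests on HQHF 4: without that mouse the log2 fold change was -3.98 (adjusted p = 0.0117).

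Ccng1 encodes cyclin G1, which works with a phosphatase on MDM2 and is among the most steadily induced p53 targets. It was at 18.4, 15.1 and 18.2 CPM in control mice, 24.1, 24.8, 29.6 and 25.3 in HFD mice, and 19.6, 21.6 and 20.3 in HQHF mice. The groups lay in separate ranges, with HFD the highest and control the lowest. The rise with the diet was small and even, at 0.59 ± 0.13 (SE) in log2 units (adjusted p = 0.0106). It missed the threshold without control 3 (adjusted p = 0.074) and was -0.47 with 12 mice (adjusted p = 0.801). In HQHF mice the log2 fold change from HFD was -0.34 ± 0.13 (SE; adjusted p = 0.0805).

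Among the genes of the apoptosis arm, Bax rose with the diet and Bbc3 did not pass the test. BAX is the effector that opens the outer mitochondrial membrane. Bax was at 4.41, 8.61 and 8.79 CPM in control mice, 11.5, 12.8, 11.8 and 11.6 in HFD mice, and 6.95, 9.70 and 6.51 in HQHF mice. The HFD mice lay close together and above all others. The diet's log2 fold change of 0.72 ± 0.24 (SE) had an adjusted p of 0.0482, and the call was lost without any 1 of the 10 libraries. With 12 mice it was 0.56 (adjusted p = 0.414). Against HFD, HQHF mice gave -0.63 ± 0.24 in log2 units (SE; adjusted p = 0.084).

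Bbc3 encodes PUMA, the BH3-only protein that links p53 to BAX. It was at 0.578, 0.743 and 1.78 CPM in control mice, 3.98, 1.4, 2.23 and 1.34 in HFD mice, and 1.38, 1.51 and 2.33 in HQHF mice. Control 4 lay inside the HFD range, and HFD and HQHF mice overlapped. The log2 fold change was 1.12 ± 0.50 (SE; adjusted p = 0.115) with the diet and -0.36 ± 0.48 (SE; adjusted p = 0.622) for HQHF against HFD. The diet's value was 1.75 without control 4 (adjusted p = 0.0539) and 0.69 without HFD 1 (adjusted p = 0.3), and with library totals in place of TMM it passed the test (1.75, adjusted p = 0.00993).

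Gdf15 encodes a hormone secreted by stressed cells, which lowers food intake through a receptor in the hindbrain and is a target of the integrated stress response as well as of p53. It was at 3.26, 3.95 and 8.73 CPM in control mice, 13.0, 13.8, 7.31 and 13.4 in HFD mice, and 8.82, 8.56 and 4.99 in HQHF mice. HFD 3 lay below control 4, so these groups overlapped, and HFD 3 also lay below 2 HQHF mice. The diet's log2 fold change was 1.16 ± 0.37 (SE; adjusted p = 0.0402). The call was lost without 7 of the 10 libraries in turn, with adjusted p = 0.136 without control 1 and 0.155 without control 3, and with 12 mice (0.93, adjusted p = 0.505). HQHF against HFD gave -0.67 ± 0.36 (SE; adjusted p = 0.205).

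The feedback and metabolic targets did not pass the test in either comparison with TMM scaling. Mdm2, whose protein degrades p53, was at 19.8, 17.3 and 14.2 CPM in control mice, 16.5, 22, 17.9 and 14.9 in HFD mice and 14.0, 17.9 and 12.3 in HQHF mice. The groups overlapped throughout. Its log2 fold change with the diet was 0.06, with a 95% interval from -0.35 to 0.47, an interval that excludes a 2-fold change in either direction on this scale. With library totals Mdm2 passed in both comparisons, at 0.65 with the diet (adjusted p = 0.0305) and -0.81 for HQHF against HFD (adjusted p = 0.0134). Sesn2 encodes sestrin 2, which restrains mTORC1 when amino acids are short. It was at 12.6, 11.1 and 11.6 CPM in control mice, 11.3, 12.3, 8.27 and 11.3 in HFD mice and 10.6, 12.7 and 14.8 in HQHF mice, again with overlap. Its log2 fold change with the diet was -0.12 (95% interval -0.50 to 0.25).

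Trp53inp1 encodes a protein that helps p53 reach its apoptotic targets and takes part in autophagy. It was at 62.3, 103 and 56.2 CPM in control mice, 57.8, 122, 43.3 and 76.4 in HFD mice and 51.9, 45.4 and 44.1 in HQHF mice. The HQHF mice lay close together, below all control mice but within the HFD range. Log2 fold changes were 0.02 ± 0.32 (SE; adjusted p = 0.973) with the diet, -0.67 ± 0.33 (SE; adjusted p = 0.168) for HQHF against HFD and -0.65 ± 0.35 (SE; adjusted p = 0.718) for HQHF against control. With library totals HQHF against HFD gave -1.20 (adjusted p = 0.0123).

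HQHF against HFD asks what the formula changed under the same diet. Phlda3 fell and none of the 10 targets rose. Over all genes tested, 11.1% fell and 7.85% rose. Gadd45a, Ccng1, Bax and Phlda3, 4 of the 10, were lower in every HQHF mouse than in every HFD mouse, against 17.2% of all genes. Fitted differences were below 0 for 9 of the 10, with a median log2 fold change of -0.56 against -0.07 over all genes. The share of all genes below 0 was not counted. This comparison and the one above share the 4 HFD mice. The count called was 1 with edgeR, 2 with DESeq2, which added Gadd45a (adjusted p = 0.0307), and 7 with library totals in place of TMM.

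In HQHF against control none of the 10 targets was called, and 0% of all genes were. At an unadjusted p under 0.05 there were 1008 genes (7.29%), and among the targets Gadd45a alone. DESeq2 called 72 genes, 1 of them a target, Gadd45a. Gadd45a was the target furthest from control, at 2.02 ± 0.788 CPM (SD, n = 3) against 0.575 ± 0.0555 (SD, n = 3), which is 1.81 ± 0.32 in log2 units (SE; unadjusted p = 0.000146, adjusted p = 0.228). Ccng1 was also higher in every HQHF mouse than in every control mouse, and Trp53inp1 was lower. Over all genes, 8.4% did not overlap on the higher side and 6.72% on the lower.

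**Figure D3:**
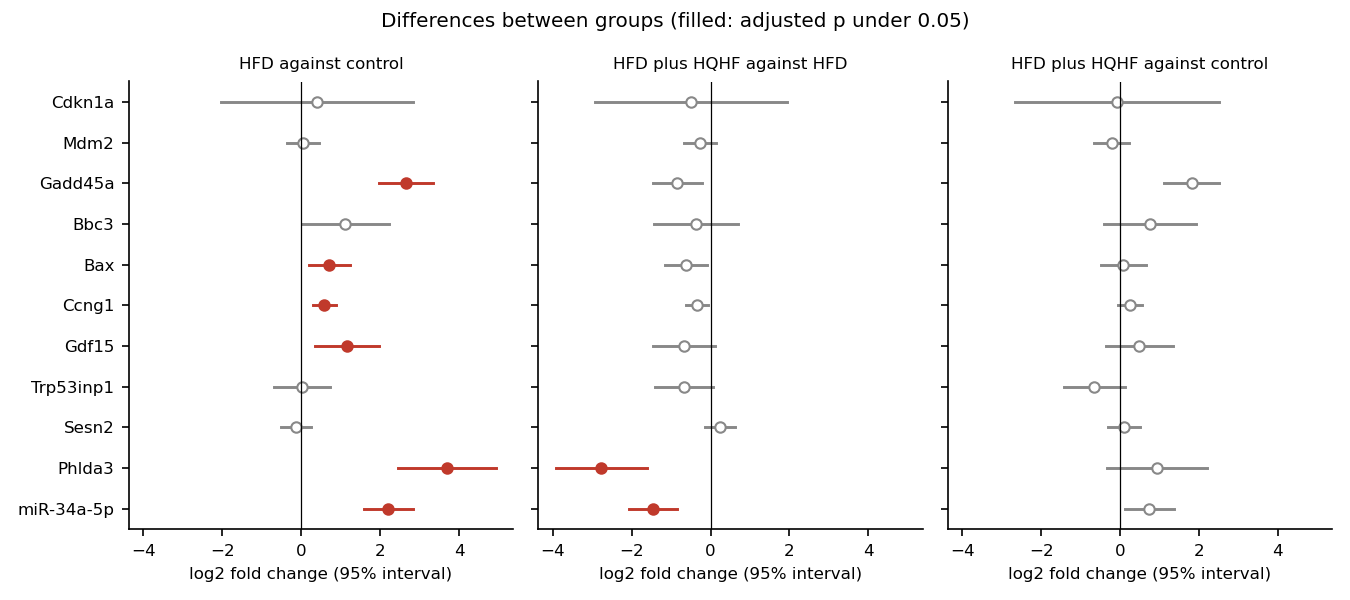
Log2 fold change with its 95% interval for the 10 targets and miR-34a-5p in the 3 comparisons; filled red points passed an adjusted p under 0.05 and open grey points did not. HFD against control has 5 filled targets, HFD plus HQHF against HFD has 1, and HFD plus HQHF against control has none; the widest interval is that of Cdkn1a.

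The scaling matters for these counts. With library totals in place of TMM, the all-gene median of the log2 fold changes moved to 0.66 for HFD against control and to -0.62 for HQHF against HFD, and 97.9% and 2.07% of the called genes were then higher. All fold changes here are relative to the TMM baseline, on which those medians are 0.06 and -0.07. The signs of Gadd45a, Phlda3, Ccng1, Bax and Gdf15 were the same on both scales in these 2 comparisons. Sesn2 changed sign, from -0.12 to 0.46 with the diet and from 0.24 to -0.30 for HQHF against HFD.

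miR-34a-5p rose with the diet and was lower in HQHF mice. It was at 551, 511 and 612 CPM in control mice, 2280, 2650, 1850 and 3560 in HFD mice and 824, 701 and 1280 in HQHF mice. The 3 groups did not overlap, with HQHF mice between the others, the same order as for Gadd45a and Ccng1. The diet's log2 fold change was 2.21 ± 0.28 (SE; adjusted p = 0.00534), while 7.64% of the 406 microRNAs tested rose, 8.62% fell and 15% were higher without overlap. From HFD to HQHF it fell by 1.47 ± 0.27 (SE) on the log2 scale (adjusted p = 0.0144), while 9.36% of microRNAs fell, 10.6% rose and 19.2% were lower without overlap. That call was lost without HQHF 1 (adjusted p = 0.0681) or HQHF 2 (adjusted p = 0.0736). HQHF against control gave 0.75 ± 0.28 (SE; adjusted p = 0.12), and 1.23% of microRNAs were called there. With 12 mice the values were 2.04 (adjusted p = 0.00612, where 0.725% of microRNAs were called) and -1.44 (adjusted p = 0.054). With library totals they were 2.90 (adjusted p = 0.00249) and -2.08 (adjusted p = 0.00932), on a scale where the median over all microRNAs moved to 0.74 and -0.72 and 94.3% and 4.76% of the called microRNAs were higher.

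The passenger strand miR-34a-3p, cut from the same hairpin, was at 0.256 to 0.651 CPM in control mice, 1.46 to 2.21 in HFD mice and 0.508 to 0.900 in HQHF mice. It rose with the diet by 1.74 ± 0.39 in log2 units (SE; adjusted p = 0.0232) and fell by 1.35 ± 0.37 (SE) in HQHF mice (adjusted p = 0.0372). Both calls were lost with 12 mice (adjusted p = 0.283 and 0.278). The relatives were scarce. miR-449a-5p rose with the diet (1.99 ± 0.59 SE on the log2 scale, adjusted p = 0.047) at 0.859 to 3.12 CPM in HFD mice, and was at 1.24 with 12 mice (adjusted p = 0.348). miR-34b-5p and miR-34c-5p, which come from 1 shared transcript that p53 also activates, did not pass the test with the diet (log2 fold changes 1.06 and 1.11, adjusted p = 0.268 and 0.314). Both were lower in every HQHF mouse than in every HFD mouse, with log2 fold changes of -2.42 and -2.68 (adjusted p = 0.0525 and 0.0587), and passed the test with library totals (adjusted p = 0.0268 and 0.0318).

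Several other microRNAs that p53 is known to raise or to help mature fell with the diet on the TMM scale, and of these miR-192-5p alone did so with library totals as well. miR-192-5p and miR-215-5p share the seed UGACCUA, and miR-194-5p is made from the same transcripts as these.
miR-192-5p: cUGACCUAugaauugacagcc
miR-215-5p: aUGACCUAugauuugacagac
miR-194-5p: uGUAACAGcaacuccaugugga
miR-192-5p, one of the most abundant liver microRNAs, was at 41500, 55600 and 46700 CPM in control mice, 27400, 30400, 22600 and 16600 in HFD mice and 53200, 57000 and 50300 in HQHF mice. It fell with the diet by 0.98 ± 0.20 (SE) on the log2 scale (adjusted p = 0.0148) and was higher in HQHF than in HFD mice by 1.14 ± 0.20 (SE; adjusted p = 0.013). miR-194-5p gave -0.83 (adjusted p = 0.0305) and 1.04 (adjusted p = 0.0155), and miR-215-5p -0.54 (adjusted p = 0.151) and 0.68 (adjusted p = 0.0844). miR-15a-5p fell with the diet and rose in HQHF against HFD, with log2 fold changes of -0.43 (adjusted p = 0.0374) and 0.54 (adjusted p = 0.0176), while its neighbour miR-16-5p gave -0.33 (adjusted p = 0.0739) and 0.18 (adjusted p = 0.252). miR-107-3p fell with the diet (-0.76, adjusted p = 0.0453). miR-143-3p and miR-145a-5p passed the test in neither comparison. miR-200c-3p was lower in HQHF than in HFD mice (-3.90, adjusted p = 0.0498), with overlap. miR-122-5p, the main hepatocyte microRNA, fell with the diet by 0.94 (adjusted p = 0.046).

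With library totals miR-192-5p gave -0.35 with the diet (adjusted p = 0.0219) and 0.60 for HQHF against HFD (adjusted p = 0.00601), and miR-194-5p -0.19 (adjusted p = 0.143) and 0.50 (adjusted p = 0.0142). miR-15a-5p changed sign, to 0.23 (adjusted p = 0.223) and -0.04 (adjusted p = 0.824), and so did miR-16-5p, which was then called higher with the diet (0.34, adjusted p = 0.0429) and lower in HQHF against HFD (-0.40, adjusted p = 0.0268). The falls of miR-107-3p and miR-122-5p with the diet were not called there (-0.10 and -0.31, adjusted p = 0.753 and 0.0624), while miR-143-3p was called lower in HQHF mice (-1.73, adjusted p = 0.0266). With 12 mice none of these microRNAs passed the test, miR-192-5p being at -0.57 (adjusted p = 0.917) and 0.77 (adjusted p = 0.798).

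Set against miR-34a-5p mouse by mouse, the target genes did not share 1 pattern. The 3 groups are separate on miR-34a-5p, so no correlation of a target gene with it over the pooled mice is given. Instead, each mouse's deviation from its group mean was correlated (log2 CPM, 10 mice, exact permutation within groups over 864 orders). For Cdkn1a Pearson's r was 0.823 (exact p = 0.0081, adjusted over the 10 targets p = 0.081) and Spearman's rho 0.879 (exact p = 0.0185, adjusted p = 0.185). Without HFD 4 and HFD 2, the mice farthest from the median of miR-34a-5p over the 10 mice, r was 0.897. That check kept HQHF 4, the mouse with the highest Cdkn1a, so it cannot show how far r rests on that mouse. The other 9 targets had r from -0.569 to 0.67, with adjusted exact p of at least 0.536. Within groups, then, none of the 10 relations passed the adjustment. In HQHF mice, the mouse with 51.3 CPM of Cdkn1a also had the highest miR-34a-5p (1280 CPM), and in HFD mice the pair with the most Cdkn1a had the most miR-34a-5p.

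**Figure D4:**
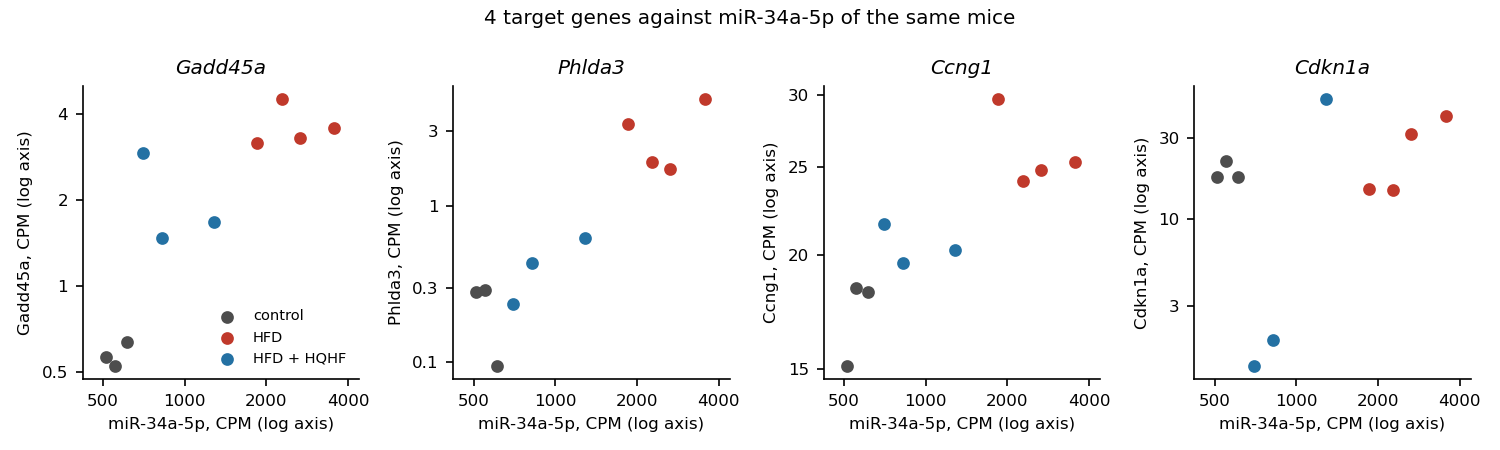
Level of 4 target genes against miR-34a-5p in the same 10 mice, both in CPM on log axes; colours give the groups. Gadd45a, Phlda3 and Ccng1 separate HFD mice at the upper right from control mice at the lower left, while Cdkn1a places 2 HFD plus HQHF mice (1.33 and 1.90 CPM) far below all control mice.

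The promoters of the targets were searched for the p53 half-site, the 10-base pattern of which a full p53 response element holds 2 copies. The window was RefSeq's, 250 bases before to 50 after each gene start, both strands, on build GRCm38.p6. The half-site was present in 5 of the 9 target genes with a promoter in the table (55.6%), against 2582 of 27025 genes (9.55%). A gene was counted if any of its promoters held it. By promoter it was present in 5 of 13 (38.5%), against 2745 of 32851 (8.36%). The 10 genes were listed because they are known p53 targets, so a share above that of all genes is not an independent result. These 5 windows are shown because they hold the half-sites, in capitals, and read 5′ to 3′ on the gene's strand.
Cdkn1a: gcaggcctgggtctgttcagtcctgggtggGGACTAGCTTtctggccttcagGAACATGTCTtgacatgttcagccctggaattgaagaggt
Gadd45a: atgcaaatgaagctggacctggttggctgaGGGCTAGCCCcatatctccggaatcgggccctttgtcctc
Ccng1: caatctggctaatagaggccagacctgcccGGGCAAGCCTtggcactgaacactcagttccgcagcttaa
Bax: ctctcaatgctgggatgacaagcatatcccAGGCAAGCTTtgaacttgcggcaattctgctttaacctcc
Mdm2: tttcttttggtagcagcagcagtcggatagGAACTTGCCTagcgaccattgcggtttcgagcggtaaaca
The Cdkn1a window is chr17:29090876-29090967 on the plus strand, with half-sites that begin 73 and 51 bases before the start of that promoter. The other RefSeq promoter of Cdkn1a, chr17:29093519-29093818, held no half-site. The windows of the other genes are on the minus strand: Gadd45a at chr6:67037408-67037477, Ccng1 at chr11:40755432-40755501, Bax at chr7:45467060-45467129 and Mdm2 at chr10:117710905-117710974. Of these 5 genes, Gadd45a, Ccng1 and Bax rose with the diet and Cdkn1a and Mdm2 did not pass the test. Bbc3, Gdf15, Phlda3 and Sesn2 had no match in this window, and Phlda3 and Gdf15 rose with the diet. The last bases of the Phlda3 window match the start of the pattern, so a half-site across that edge could not be scored. A match is a description of the letters, not a measured binding site.

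p53's own gene, Trp53, was at 15.9, 15.5 and 18.6 CPM in control mice, 25.9, 26.2, 16.4 and 26.9 in HFD mice and 11.8, 12.7 and 18.6 in HQHF mice. HFD 3 lay among the control values and HQHF 4 above it. The diet's log2 fold change was 0.52 ± 0.21 (SE; adjusted p = 0.0899), and that of HQHF against HFD was -0.73 ± 0.21 (SE; adjusted p = 0.0371). Trp53 overlaps the antisense gene Wrap53, and the sources used here do not say whether counting used the strand, so these values are uncertain. Mdm4, which blocks p53's activation domain, was at 26.9 to 39.1 CPM over all 10 mice, with a log2 fold change of 0.01 with the diet (adjusted p = 0.976). Of 13 tested genes of p53 and its regulators, 1 rose with the diet, against 16.3% of all genes. In HQHF against HFD 2 of 13 fell, against 11.1% of all genes. The gene that rose was the checkpoint kinase gene Chek2 (1.47 ± 0.34 SE, adjusted p = 0.0138). Those that fell were Trp53 and the damage-sensing kinase gene Atm (-0.57, adjusted p = 0.0365). Neither of these 2 was called with only the HFD and HQHF libraries in the fit, or without control 3, HFD 1, HFD 2, HQHF 1 or HQHF 2, and 1 of them was called without control 4 or HFD 4. Chek2 was not called without control 3.

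A list of other p53 targets held calls in both directions. Of 36 tested, 13 rose and 4 fell with the diet, where 16.3% of all genes rose and 9.89% fell. In HQHF against HFD 10 fell and 4 rose, where 11.1% of all genes fell and 7.85% rose. The calls against the main direction were thus near the all-gene shares. Median log2 fold changes of the list were 0.44 with the diet and -0.32 for HQHF against HFD. Among those that rose with the diet were 2 death receptor genes. Eda2r was at 0.345 ± 0.0968 CPM in control (SD, n = 3) and 2.82 ± 1.03 in HFD mice (SD, n = 4), a rise by 3.02 ± 0.40 in log2 units (SE; adjusted p = 0.00208). Tnfrsf10b, the mouse TRAIL receptor, was at 0.408 ± 0.0648 (SD, n = 3) and 2.45 ± 0.839 CPM (SD, n = 4), a rise by 2.58 ± 0.38 in log2 units (SE; adjusted p = 0.0031). In HQHF mice Eda2r fell by 2.37 (adjusted p = 0.00562) and Tnfrsf10b by 2.56 (adjusted p = 0.00391). Zmat3, an RNA-binding p53 effector, fell in HQHF against HFD by 1.05 ± 0.18 (SE; adjusted p = 0.00681). Ei24, which encodes a protein of the endoplasmic reticulum, fell with the diet by 0.89 ± 0.16 (SE; adjusted p = 0.00541) and rose in HQHF against HFD (0.87, adjusted p = 0.0082). Without control 1, control 3 or control 4 the diet count was 9, 9 and 10 of 36, and without HQHF 1 or HQHF 2 the second count was 6 and 5. Without HFD 1 or HFD 4 it was 8 and 9. With library totals all 23 called genes rose with the diet, and 20 of 21 fell in HQHF against HFD, so the falls and rises against the main direction hold mostly relative to the TMM baseline.

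**Figure D5:**
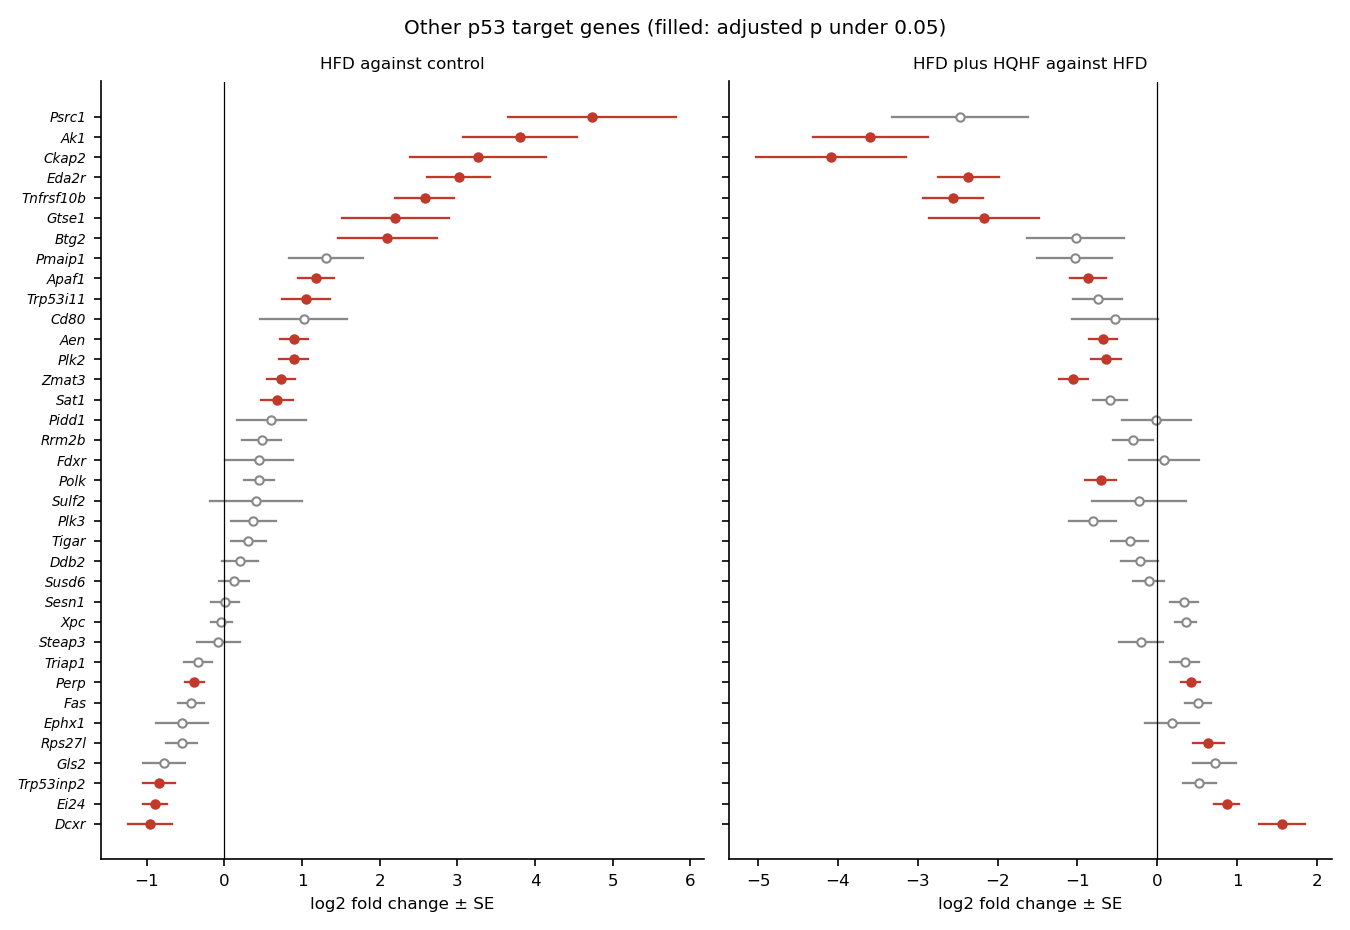
Log2 fold change ± SE of 36 other p53 target genes for HFD against control (left) and HFD plus HQHF against HFD (right), ordered by the left panel; filled red points passed an adjusted p under 0.05. Most filled genes on the right of the left panel, such as Eda2r and Tnfrsf10b, lie left of 0 in the right panel. Psrc1, the top gene, had 2 counts in the control libraries together against 127 in HFD, a ratio of 31.6 with an exact 95% counting interval from 8.57 to 264.

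Genes that p21 is known to lower, those of DNA replication and mitosis, were higher with the diet. Of 20 tested, 8 rose and none fell, against 16.3% and 9.89% of all genes, with a median log2 fold change of 2.02. In HQHF against HFD 8 of 20 fell and none rose, against 11.1% and 7.85% of all genes, with a median of -1.79. Mcm2, a subunit of the replicative helicase, rose by 1.43 ± 0.27 (SE; adjusted p = 0.00631) and fell by 1.20 in HQHF mice (adjusted p = 0.0149). Bub1b, of the spindle checkpoint, and Mcm5 rose by 1.45 and 1.37 (adjusted p = 0.0228 and 0.023). The proliferation marker Mki67 fell by 2.35 in HQHF mice and Cdc20, an activator of mitotic exit, by 4.15 (adjusted p = 0.0248 and 0.025). These counts were unsteady: leaving out 1 library gave 1 to 17 genes for the diet (1 without control 1 or control 3, 3 without control 4, 4 without HFD 1, 17 without HFD 3) and 0 to 17 for HQHF against HFD (0 without HQHF 1 or HQHF 2, 1 without HQHF 4, 3 to 5 without control 1, 3 or 4 or HFD 1, 2 or 4, 17 without HFD 3). Among 7 other cyclin-dependent kinase inhibitors and Gadd45 paralogs, Cdkn2c, which encodes p18, rose with the diet (1.47 ± 0.26 SE, adjusted p = 0.00534) and fell in HQHF mice (-1.02 ± 0.25 SE, adjusted p = 0.0227), and no other was called. The fall was not called without HQHF 2 or HQHF 4, and 3 genes of this list were called in either comparison without HFD 2.

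Of 13 BCL-2 family genes other than Bax and Bbc3, 4 rose with the diet and none fell, against 16.3% and 9.89% of all genes. These were the BH3-only genes Bcl2l11 (1.24, adjusted p = 0.0065) and Bmf (1.45, adjusted p = 0.019), and the effector genes Bok (0.71, adjusted p = 0.0167) and Bak1 (0.66, adjusted p = 0.0204). In HQHF against HFD, Bik rose (1.29, adjusted p = 0.0207) and the anti-apoptotic Bcl2 fell by 1.43 (adjusted p = 0.0314), 1 gene each way, against 7.85% and 11.1% of all genes. The diet count fell to 1 without control 1 and 2 without control 3, and neither change in HQHF mice was called without HQHF 1 or HQHF 2. Leaving out control 3 or HQHF 4 kept 1 of these, as the replicate block did, and with library totals all 8 called genes fell.

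ATF4 is the transcription factor of the integrated stress response, which also acts on Gdf15, Sesn2 and Bbc3. Of 18 of its targets tested, 7 rose with the diet and none fell, against 16.3% and 9.89% of all genes. In HQHF against HFD 9 fell and none rose, against 11.1% and 7.85% of all genes. Median log2 fold changes were 1.21 and -1.53. The serine synthesis gene Psat1 was at 0.544 ± 0.0846 CPM in control (SD, n = 3), 8.82 ± 4.42 in HFD (SD, n = 4) and 0.642 ± 0.145 in HQHF mice (SD, n = 3). Its log2 fold changes were 4.01 ± 0.43 (SE; adjusted p = 0.000932) and -3.78 ± 0.43 (SE; adjusted p = 0.00178). Slc7a11, the cystine transporter that feeds glutathione synthesis and is known to be repressed by p53, had 669 counts in the HFD libraries and 1 in the HQHF libraries together, a ratio of 341 with an exact 95% counting interval from 61 to 1.35e+04. Mthfd2, of mitochondrial folate metabolism, rose with the diet (2.33, adjusted p = 0.00553), and Phgdh, the first enzyme of serine synthesis, fell in HQHF mice by 3.70 (adjusted p = 0.00798). Leaving out control 3 gave 4 for the diet, and leaving out HQHF 1 or HQHF 2 gave 4 for HQHF against HFD. With 12 mice Psat1 changed sign with the diet (-0.44, adjusted p = 0.929). Phgdh changed sign in HQHF against HFD (0.66, adjusted p = 0.958). The other differences named here for Psat1, Slc7a11 and Mthfd2 kept their signs with 12 mice but were not called.

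Of 24 genes known as targets of miR-34a, 4 rose and 3 fell with the diet, a median log2 fold change of 0.13, near the shares over all genes (16.3% rose and 9.89% fell). In HQHF against HFD 3 rose and 4 fell, with a median of -0.22, where 7.85% of all genes rose and 11.1% fell. Ppara, the fatty acid oxidation regulator, was at 497 ± 53.1 CPM in control (SD, n = 3), 223 ± 59.5 in HFD (SD, n = 4) and 476 ± 45.5 in HQHF mice (SD, n = 3). It fell with the diet by 1.16 ± 0.21 (SE; adjusted p = 0.00571) and rose in HQHF against HFD (1.09 ± 0.21 SE, adjusted p = 0.00954). Met, the receptor of hepatocyte growth factor, gave -0.69 (adjusted p = 0.00583) and 0.54 (adjusted p = 0.0176). Ccnd1, the G1 cyclin, went the other way, with 2.05 (adjusted p = 0.00875) and -1.88 (adjusted p = 0.0154). Without HQHF 1 or HQHF 2, 1 of these genes was called in HQHF against HFD, and with library totals all 14 called genes rose with the diet and all 14 fell in HQHF against HFD.

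Markers of other cell types moved with the same comparisons. Beside the counts below, 16.3% of all genes rose and 9.89% fell with the diet. In HQHF against HFD 11.1% of all genes fell and 7.85% rose. Of 12 monocyte and recruited macrophage markers 11 rose with the diet, and their summed share of counts was 0.00667% to 0.0103% in control, 0.0367% to 0.104% in HFD and 0.0077% to 0.0101% in HQHF mice. Of 12 stellate cell markers 10 rose, with shares of 0.0173% to 0.0232%, 0.0421% to 0.141% and 0.0204% to 0.028%. In HQHF against HFD, 10 of each list fell. Of 16 hepatocyte markers 7 fell with the diet and 6 rose in HQHF against HFD, with shares of 13.6% to 17.1%, 9.55% to 16.5% and 11.3% to 15.1%. Of 7 neutrophil markers 6 rose with the diet. Of 12 Kupffer cell markers 4 fell and 2 rose, of 12 T and NK cell markers 3 rose, and of 12 endothelial markers 1 rose. Of 8 cholangiocyte markers 1 rose with the diet and 1 fell in HQHF against HFD, but their median log2 fold changes were 2.96 and -3.30, with 6 and 7 of 8 at an unadjusted p under 0.05. Their share was 0.0532% in HFD 4 and 0.0163% in HFD 1, and 0.00295% to 0.00766% in the other 8. The cholangiocyte and macrophage lists share Spp1, so they are not independent. HFD 4 and HFD 1 also had the highest macrophage shares, 0.104% and 0.07%. HFD 4 also held the most red blood cell RNA, 0.248% against at most 0.109%, and it was the mouse with the highest Phlda3 and miR-34a-5p. No B and plasma cell marker was called, and 1 of 7 red blood cell markers fell. Adipocyte markers made up 0.0245% of counts in HFD 3 and at most 0.00123% in the other 9 mice. Pancreatic acinar markers made up 0.199% in control 1 and at most 0.00241% in the other 9. The part of these cell types in the changes of the target genes was not tested. Without HFD 3 the diet's log2 fold change was 3.63 for Phlda3 (adjusted p = 0.00331) and 2.72 for Gadd45a (adjusted p = 0.0011), and without HFD 4 they were 3.36 (adjusted p = 0.00488) and 2.67 (adjusted p = 0.00197), with miR-34a-5p at 2.04 (adjusted p = 0.00818).

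The genes most like Cdkn1a over the 10 mice, by Pearson's r of log2 CPM, were Npas2 (0.972), Vcl (0.958), Ppp2r1a (0.957), Hivep1 (0.945) and Nt5c2 (0.938). Npas2, a circadian clock transcription factor, was at 4.2, 3 and 2.6 CPM in control mice, 2.47, 4.94, 1.59 and 3.87 in HFD mice and 0.459, 0.443 and 4.94 in HQHF mice. It thus had the same 2 low HQHF mice and the same high one, a likeness favoured by its choice through r over these mice. HQHF 1 and HQHF 2 were also the 2 lowest mice for Vcl, Ppp2r1a, Hivep1 and Nt5c2. A part of the clock in Cdkn1a was not tested. For miR-34a-5p the most alike genes were Pacs1 (0.988), Lratd2 (0.984), Heg1 (0.981), Arf6 (0.976) and S1pr2 (0.974). These r values are a description over points that share libraries and groups.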

How the data were processed

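Liver long RNA and small RNA of 12 mice were analysed from gene and mature microRNA counts, whole numbers that the authors deposited. HISAT2, RSEM and build GRCm39 are named per the submitters' processing notes, with no versions or roles, and the use of strand in counting is not given in the sources used here. No normalization had been applied, no 2 libraries were copies, and all 10 gene IDs matched the reference table.

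Tests ran in edgeR 4.0.16 under R 4.3.3 (filterByExpr, TMM with factors from 0.763 to 1.42 for long RNA and 0.707 to 1.61 for small RNA, robust quasi-likelihood fit of the 3 groups together). Benjamini-Hochberg adjustment ran over 13832 genes or 406 microRNAs, and a call is an adjusted p under 0.05. SD values are over mice on the CPM scale. The correlations used log2 CPM of the deposited counts with a prior count of 2. DESeq2 1.42.0, other scalings and filters, a replicate block and leaving out each library were alternatives. Figures used Python 3.11.15 with matplotlib 3.10.9.

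The members, the gene lists and the left-out libraries were chosen with earlier results of these data known. Named genes were the members, Trp53, Mdm4, the detected microRNAs linked to p53, the 3 called genes with the smallest p of each list in the comparisons of HFD with control and HQHF with HFD, and the 5 genes most like Cdkn1a and miR-34a-5p. Bak1, Psrc1 and Wrap53 fall outside this rule and were named after their values were seen. Deviations from the group means of same-numbered mice of different groups correlated at -0.0542 to 0.119. Mice of unlike numbers were not compared, so this gave no sign of pairing by number but cannot exclude it. Counts were also simulated with the library sizes and spread of these mice, with 100 genes changed 2-fold and 100 changed 4-fold in HFD. Of 13713 genes tested there, 43% of the 2-fold and 82% of the 4-fold changes were recovered. In the data far more genes were called (2257 higher and 1368 lower with the diet), and the simulation held no group difference in RNA composition. These rates therefore need not hold for the data.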

Additional observations from a re-analysis of the deposited data

Results flagged for a closer look

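Gdf15 in HFD mice held 1 value far from the others: HFD 3 was at 7.31 CPM, while the other 3 HFD mice were at 13.0, 13.8 and 13.4. The gap to its neighbour was 0.885 of the group's range, above Dixon's 95% critical value for 4 samples. The 10 targets and miR-34a-5p gave 11 such groups of 4, and chance alone picks out about 1 in 20. Without HFD 3 the log2 fold change of Gdf15 with the diet was 1.34 (adjusted p = 0.0199 in edgeR).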

How the results depend on the processing

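Of the 10 targets, 5 passed in HFD against control. With all 12 libraries 0 did, with no filter, with only the 2 groups compared or with the replicate block 3 did, with library totals 7 did, and leaving out 1 library gave 2 to 4. Gadd45a and Phlda3 passed in each of these settings except the 12 libraries. In HQHF against HFD the count of 1 became 0 with 12 libraries, 2 with DESeq2, 7 with library totals, 4 at an adjusted p under 0.1 and 1 to 2 without 1 library. In HQHF against control DESeq2 called 1 where edgeR called 0. For miR-34a-5p the log2 fold change of HQHF against HFD was -1.44 with 12 libraries and -1.74 to -1.29 without 1 library. HQHF against control gave 0.81 with only the 2 groups (adjusted p = 0.0326), and 0.46 to 0.92 without 1 library. The diet's was 2.04 to 2.42 in all settings but library totals, where it was 2.90 and that of HQHF against HFD -2.08.

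With 12 libraries these log2 fold changes changed sign: Ccng1 -0.47, Trp53inp1 -0.14 and Phlda3 -1.39 (HFD against control), Cdkn1a 0.25, Ccng1 0.42 and Phlda3 2.29 (HQHF against HFD), and Cdkn1a 0.58, Bax -0.18, Ccng1 -0.052, Gdf15 -0.035 and Sesn2 -0.52 (HQHF against control). Trp53inp1 with the diet gave -0.0096 with DESeq2, -0.0097 with RLE factors, -0.0028 with the 2 groups and -0.17 with the replicate block. Sesn2 gave 0.46 and -0.30 with library totals. The replicate block also turned Mdm2 with the diet to -0.048 and Sesn2 in HQHF against control to -0.028. Whether the numbers pair mice is not known, so no reading is given to a call lost there. Without 1 library, signs changed within these ranges: with the diet -0.32 to 0.28 for Trp53inp1 and -0.062 to 0.17 for Mdm2, in HQHF against HFD -0.62 to 0.067 for Bbc3 and -3.98 to 0.067 for Cdkn1a, and in HQHF against control -3.57 to 0.47 for Cdkn1a, -0.17 to 0.24 for Bax and -0.016 to 0.23 for Sesn2. Correlations with miR-34a-5p changed sign for Bbc3 (0.63 without the 2 farthest mice), Gdf15 (-0.0824 with library totals and -0.115 without those mice) and Trp53inp1 (-0.149 and -0.181). Apart from the scale and the libraries left out, the cause was not tested. The comparison over 7 mice on the high-fat diet was not run.

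The limits are 3 or 4 mice per group, low counts of Phlda3 and Gadd45a in control mice, and the choice of 10 libraries, on which every call of a target gene here rests.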
